A study of Mus musculus with 12 samples.

Results

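The insulin-like growth factor axis was read here through 10 named genes: the ligands Igf1 and Igf2, the receptors Igf1r and Igf2r, and the binding proteins Igfbp2, Igfbp3, Igfbp4, Igfbp5, Igfbp6 and Igfbp7. They were taken by gene symbol from the joined expression tables. Rows were held for 9 of the 10 among 12028 genes in all, and Igfbp3 was not analysed here. The samples were M2-10B4 cells, 1 established stromal line from mouse bone marrow (C57BL/6J X C3H/HeJ), harvested on day 9 of culture as biological triplicates, with 4 groups and 12 libraries. ADM+DHT cells were grown in adipogenic medium with 10 nM dihydrotestosterone (DHT), a potent androgen. ADM cells were grown in the same adipogenic medium without the androgen. That medium held 2 µg/mL insulin, 1 µM dexamethasone (a synthetic glucocorticoid), 2 µM rosiglitazone (an activator of PPAR gamma) and 10% charcoal-stripped serum. DHT cells received 10 nM DHT in regular medium. Control cells were untreated in regular medium, whose composition the labels do not give. The components of the adipogenic medium were given together, so their single effects cannot be told apart.

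Insulin-like growth factors are secreted peptides that signal mainly through the type 1 receptor tyrosine kinase and drive growth, survival and differentiation. The type 2 receptor, which also carries mannose 6-phosphate tagged enzymes to lysosomes, binds and clears IGF-II. Secreted binding proteins hold the ligands in the extracellular space, and proteases that cut the binding proteins set the ligands free. In bone marrow stroma, IGF-I and the binding proteins are known as local regulators of bone formation, and IGF-I and insulin are known to promote the formation of fat cells.

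The promoters of the genes on which the results turn are shown here because androgen and glucocorticoid receptors share a DNA motif and both steroids were in the media. Each window spans 300 bases around the RefSeq start in GRCm38.p6 and is written 5′ to 3′ on the gene's strand. Igf1 lies on the plus strand (chr10:87860861-87861160), as do Igfbp2 (chr1:72824230-72824529) and Igfbp4 (chr11:99040994-99041293). Igfbp5 (chr1:72874816-72875115) and Igfbp7 (chr5:77407996-77408295) lie on the minus strand. Capitals mark a receptor hexamer (AGAACA or TGTTCT) in Igfbp2 and a TATA box (TATAAA) in Igfbp4.
Igf1: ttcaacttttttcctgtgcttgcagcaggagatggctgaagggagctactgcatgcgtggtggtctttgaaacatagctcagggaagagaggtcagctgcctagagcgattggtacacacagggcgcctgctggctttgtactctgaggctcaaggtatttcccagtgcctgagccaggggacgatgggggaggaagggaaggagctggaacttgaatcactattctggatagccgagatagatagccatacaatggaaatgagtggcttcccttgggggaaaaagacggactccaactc
Igfbp2: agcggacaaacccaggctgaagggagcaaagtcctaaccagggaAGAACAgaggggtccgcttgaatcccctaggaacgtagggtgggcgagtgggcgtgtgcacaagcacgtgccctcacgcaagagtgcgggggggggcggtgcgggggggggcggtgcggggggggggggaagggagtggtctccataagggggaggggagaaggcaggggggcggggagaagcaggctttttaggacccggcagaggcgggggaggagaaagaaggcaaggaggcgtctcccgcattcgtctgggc
Igfbp4: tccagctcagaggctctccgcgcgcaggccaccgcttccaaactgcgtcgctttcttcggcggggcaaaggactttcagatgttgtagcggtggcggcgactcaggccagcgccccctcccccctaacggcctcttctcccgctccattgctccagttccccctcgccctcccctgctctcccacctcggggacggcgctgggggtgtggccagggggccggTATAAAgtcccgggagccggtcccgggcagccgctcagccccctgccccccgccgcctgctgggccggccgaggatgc
Igfbp5: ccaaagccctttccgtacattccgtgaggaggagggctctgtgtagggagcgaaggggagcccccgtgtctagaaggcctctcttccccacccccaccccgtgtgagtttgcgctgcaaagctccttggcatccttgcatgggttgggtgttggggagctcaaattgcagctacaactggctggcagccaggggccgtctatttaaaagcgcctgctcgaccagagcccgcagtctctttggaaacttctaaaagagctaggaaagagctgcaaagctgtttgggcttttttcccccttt
Igfbp7: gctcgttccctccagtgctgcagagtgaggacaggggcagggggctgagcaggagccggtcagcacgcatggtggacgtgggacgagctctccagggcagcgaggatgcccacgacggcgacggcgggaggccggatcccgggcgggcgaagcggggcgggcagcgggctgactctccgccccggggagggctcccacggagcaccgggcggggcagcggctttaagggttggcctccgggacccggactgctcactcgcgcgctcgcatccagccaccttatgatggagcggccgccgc

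All 10 members had a window, and Igf2 and Igfbp2 had several, so that 14 windows were searched on both strands. The full receptor palindrome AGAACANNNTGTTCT was in 0 of the 14 windows and in 0.00913% of 32841 mouse promoter windows of the same length. Its hexamer was in 2 of the 14, a window of Igfbp2 and a window of Igf2, against 19.0% of all windows. The hexamer also forms each arm of the palindrome. The direct repeat AGGTCANAGGTCA, a motif of PPAR gamma, was in 0 member windows and in 0.0396% of all windows. The FOXO motif GTAAACA was in 0 member windows and in 3.65% of all. TATAAA was in 2 member windows, those of Igfbp4 and Igfbp6, and in 13.6% of all. Such matches describe letters in short windows and bear neither way on binding elsewhere. Igfbp2 and Igfbp5 are neighbours on chromosome 1 in tail-to-tail orientation, with 5457 bases and 0 annotated genes between their ends. Igfbp5 has 4 exons and Igf2r has 48, in GENCODE M21.

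Levels are in FPKM, the fragments of a transcript scaled by its length and by library size, and sequencing depth is unknown because the tables hold no counts. The fat cell genes Adipoq and Fabp4 and the steroid receptor target Fkbp5 were used to check the labels. Adipoq averaged 177.8 ± 11.5 FPKM in ADM+DHT cells, 549.9 ± 21.8 in ADM cells, 0.841 ± 0.182 in DHT cells and 0.914 ± 0.161 in control cells (SD, n = 3 each). Fkbp5 averaged 183, 117, 49.2 and 4.33 FPKM in ADM+DHT, ADM, DHT and control cells, in that order. All 10 fat cell markers had rows, and their summed level ranged over 699 to 774 FPKM in ADM+DHT cells, 2111 to 2222 in ADM cells, 26.6 to 27.6 in DHT cells and 26.3 to 40.1 in control cells. Of 11 marrow stroma markers 9 had rows, with sums of 2183 to 2214, 1490.2 to 1557, 2540.4 to 2630.1 and 2366 to 2414 FPKM in the same order of groups. Of the 8 stroma markers tested in ADM against control cells 4 rose and 4 fell, where 28.3% and 33.3% of all genes tested did. Kitl (1.81) and Cxcl12 (0.94) were among those that rose, and Col1a1 (-0.97) and Col1a2 (-0.70) among those that fell, as log2 differences. Of 6 osteoblast markers 5 had rows, with sums of 420.3 to 428 FPKM in ADM+DHT cells, 341 to 364 in ADM cells, 290.2 to 315 in DHT cells and 725 to 792 in control cells. Spp1, which encodes the matrix protein osteopontin, held most of these sums, with means of 417, 348, 293 and 752 FPKM. Of 5 endothelial markers and 6 macrophage and haematopoietic markers, 0 and 2 averaged at least 1 FPKM. Mitochondrially encoded genes took 13.3 to 13.9%, 16.3 to 17.2%, 9.63 to 10.5% and 9.34 to 9.96% of all FPKM. The summed fat cell, stroma and osteoblast markers and the mitochondrial share therefore moved with the groups. The part of the cell type markers in the differences that follow was not tested. With FPKM rescaled without mitochondrial genes, the members' counts in ADM against control cells were again 1 higher and 6 lower, where 3308 and 3433 of 11074 genes were. Igf1 was then at -1.86, Igfbp5 at -2.50 and Igfbp7 at 2.14 (log2). In bulk RNA, fewer cells of a type and less RNA per cell cannot be told apart.

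Differences were tested on log2(FPKM + 1) with limma, and "rose", "fell" and "changed" mean a Benjamini-Hochberg adjusted p below 0.05 over all genes tested in a comparison. Log2 differences below are on that scale, which understates the changes of genes near or below 1 FPKM. Adipogenic medium without DHT was set against regular medium first. Of 8 members tested in ADM against control cells, 1 rose and 6 fell, where 28.3% of all 11074 genes tested rose and 33.3% fell. The fallen members were Igf1, Igf1r, Igf2r, Igfbp4, Igfbp5 and Igfbp6, and the riser was Igfbp7. The members' median log2 difference was -0.64, beside -0.03 over all genes tested. With DHT in regular medium against control, 3 of 9 members rose and 5 fell, where 12.7% and 14.1% of 10820 genes did. The 3 include Igfbp2, which entered that test only through the DHT cells, in which it was high. With a filter of 5 FPKM 2 members rose and 5 fell, where 1026 and 1239 of 7094 genes did. With DHT in adipogenic medium against ADM alone, 3 of 9 rose and 1 fell, where 17.2% and 16.3% of 10823 genes did. With adipogenic medium against regular medium, DHT present in both, 2 of 9 rose and 4 fell, where 23.3% and 26.7% of 10942 genes did. These comparisons share libraries in pairs, so their values for a member stand side by side as single results.

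**Figure D1:**
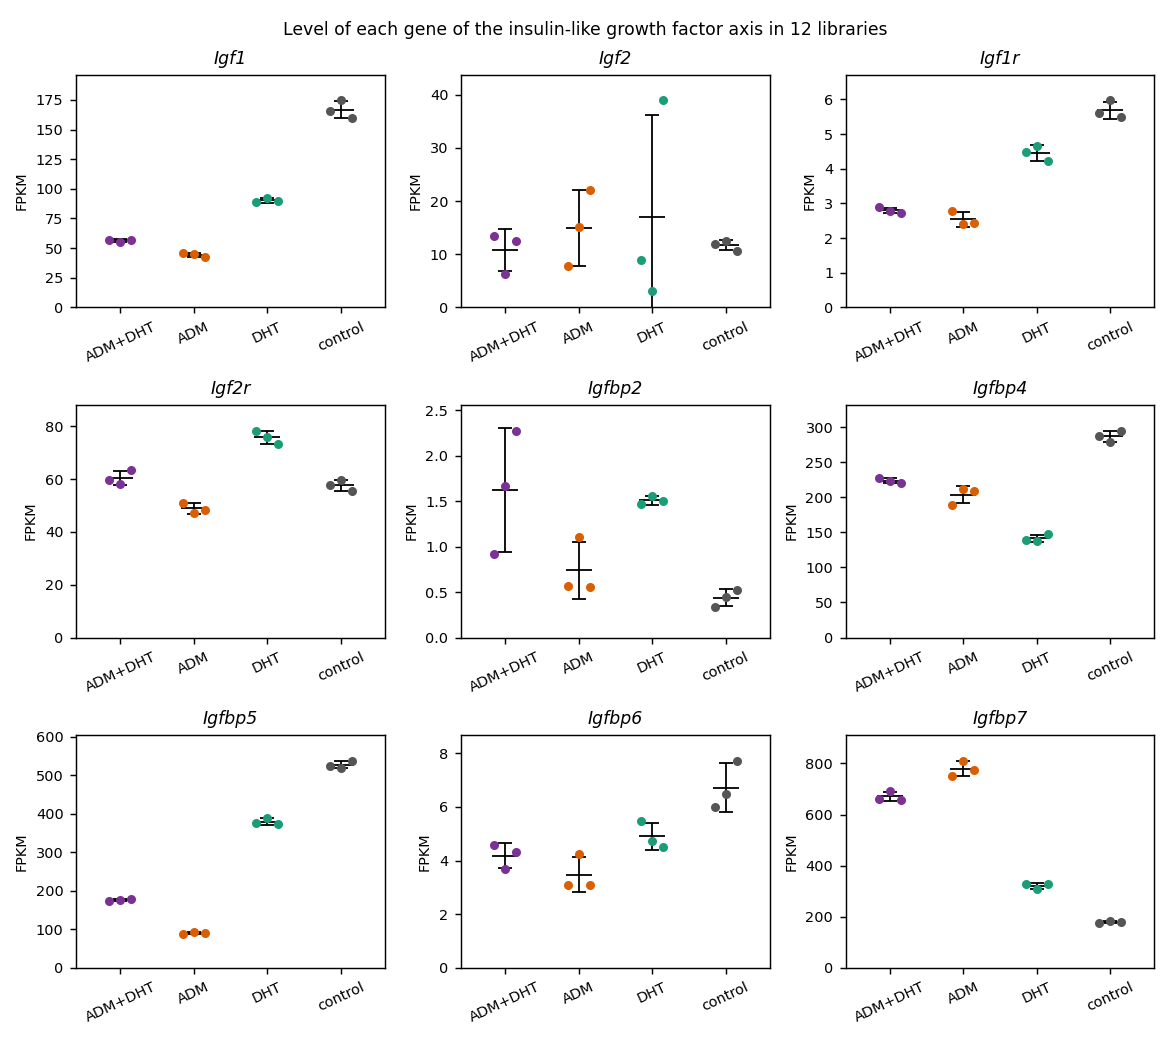
FPKM of the 9 genes of the axis in each library, by group (ADM+DHT, ADM, DHT, control); points are libraries, the wide bar is the group mean and the whiskers are 1 SD (n = 3), with the lower whisker of Igf2 in DHT cells running below 0. Igfbp5 and Igf1 were lowest in ADM cells, where Igfbp7 was highest, and the 3 DHT libraries of Igf2 spread over 3.02 to 38.9 FPKM.

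**Figure D2:**
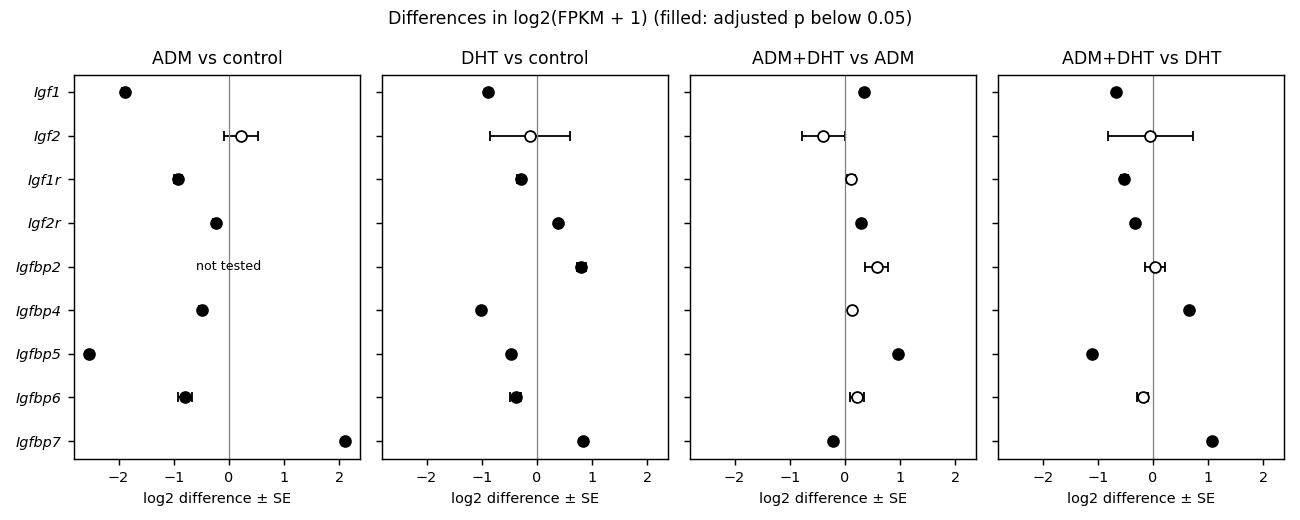
Log2 differences with SE (whiskers, hidden by the symbol where small) for the 4 pairs of groups, the first-named group minus the second. Filled symbols have an adjusted p below 0.05. Igfbp2 entered the test of DHT against control cells only through the DHT cells. It entered that of ADM+DHT against ADM cells only through the ADM+DHT cells. The range runs from -2.54 for Igfbp5 to 2.11 for Igfbp7, both in ADM against control cells.

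Igf1 encodes IGF-I, the main ligand of the type 1 receptor after birth. It stood at 57.1, 55.3 and 56.9 FPKM in ADM+DHT cells, 45.6, 44.6 and 42.5 in ADM cells, 88.5, 92.6 and 89.6 in DHT cells, and 166, 175 and 159.9 in control cells. The 12 libraries fell into 4 bands without overlap, with control highest, then DHT, then ADM+DHT, and ADM lowest. By mean level Igf1 ranked 742 of 11878 genes in ADM+DHT cells, 1007 of 11980 in ADM cells, 398 of 11862 in DHT cells and 186 of 11946 in control cells. It fell by 1.89 ± 0.05 in ADM against control cells (log2, SE; limma adjusted p = 9.18e-08). It fell by 0.88 ± 0.04 in DHT against control cells (limma adjusted p = 1.5e-05). Within adipogenic medium the androgen moved it the other way: Igf1 rose by 0.35 ± 0.04 in ADM+DHT against ADM cells (limma adjusted p = 0.00057). Adipogenic medium with DHT still left it 0.67 below DHT alone (log2 difference -0.67 ± 0.03, limma adjusted p = 5.14e-06). The antisense gene Igf1os overlaps Igf1. The libraries were strand-specific, but whether strand was used in the counting is not given in the sources used here.

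Igf2 encodes IGF-II, the mainly fetal ligand, from an imprinted locus. It stood at 13.5, 6.31 and 12.5 FPKM in ADM+DHT cells, 7.76, 15.1 and 22.0 in ADM cells, 8.84, 3.02 and 38.9 in DHT cells, and 11.997, 12.4 and 10.7 in control cells. Every group overlapped the next in the order of means. The coefficient of variation was 114% in DHT cells and 7.82% in control cells. Igf2 did not pass the test in any of the 4 pairs, with differences between -0.39 ± 0.39 in ADM+DHT against ADM cells and 0.22 ± 0.31 in ADM against control cells (log2, SE). Without ADM replicate 1 the difference from control was 0.60 with a limma adjusted p of 0.0167, so that library decides whether Igf2 is called there. A second protein-coding gene, Gm49394 (AC013548.1 in the deposited tables), overlaps Igf2 on the same strand. It ranged from 0.0727 FPKM in a DHT library to 3.84 FPKM in an ADM+DHT library. Reads of the shared exons could be split between both, so the Igf2 levels are uncertain.

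Igf1r encodes the signalling receptor. It stood at 2.89, 2.77 and 2.73 FPKM in ADM+DHT cells, 2.78, 2.39 and 2.44 in ADM cells, 4.49, 4.65 and 4.21 in DHT cells, and 5.60, 5.97 and 5.51 in control cells. Control and DHT libraries lay apart from each other and from both adipogenic groups, which overlapped. Igf1r fell by 0.92 ± 0.07 in ADM against control cells (log2, SE; limma adjusted p = 2.53e-05) and by 0.30 ± 0.06 in DHT against control cells (limma adjusted p = 0.0147). In ADM+DHT against DHT cells it fell by 0.52 ± 0.06 (limma adjusted p = 0.000468). In ADM+DHT against ADM cells the difference was 0.10 ± 0.07 and missed the threshold (limma adjusted p = 0.318).

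Igf2r encodes the clearance receptor and stood above Igf1r, per length, in every library. It stood at 59.6, 58.1 and 63.4 FPKM in ADM+DHT cells, 51.0, 47.2 and 48.5 in ADM cells, 78.4, 75.9 and 73.4 in DHT cells, and 57.8, 59.7 and 55.6 in control cells. DHT cells were highest and ADM cells lowest, and ADM+DHT and control libraries overlapped between them. Igf2r rose with DHT in both media, by 0.30 ± 0.05 in ADM+DHT against ADM cells (log2, SE; limma adjusted p = 0.003) and by 0.39 ± 0.04 in DHT against control cells (limma adjusted p = 0.000698). It fell with adipogenic medium, by 0.33 ± 0.04 in ADM+DHT against DHT cells and by 0.23 ± 0.05 in ADM against control cells (limma adjusted p = 0.000778 and 0.00345, in that order). Per length, the level of Igf2r over that of Igf1r was 21.6 ± 1.42 in ADM+DHT cells, 19.3 ± 0.828 in ADM cells, 17.1 ± 0.656 in DHT cells and 10.1 ± 0.175 in control cells (SD, n = 3 each). The antisense gene Airn overlaps Igf2r.

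Igfbp5 encodes a binding protein abundant in bone and stroma that attaches to extracellular matrix. It stood at 173, 176 and 179 FPKM in ADM+DHT cells, 88.5, 92.0 and 89.7 in ADM cells, 376, 389.9 and 374 in DHT cells, and 525, 519 and 538 in control cells. The 4 groups did not overlap. Igfbp5 ranked 157 by mean level in ADM+DHT cells, 420 in ADM cells, 59 in DHT cells and 37 in control cells. It fell by 2.54 ± 0.03 in ADM against control cells (log2, SE; limma adjusted p = 7.97e-09). It fell by 0.47 ± 0.03 in DHT against control cells (limma adjusted p = 7.88e-05). In adipogenic medium DHT raised it by 0.96 ± 0.03 over ADM alone (limma adjusted p = 2.16e-06), and the level stayed 1.10 lower in ADM+DHT than in DHT cells (log2 difference -1.10 ± 0.03, limma adjusted p = 3.91e-07).

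Igfbp7 encodes a secreted relative with weak affinity for the ligands, known from vessels and matrix. It stood at 662, 692 and 658 FPKM in ADM+DHT cells, 752, 810.5 and 775 in ADM cells, 329.7, 308 and 326 in DHT cells, and 176, 184 and 180.4 in control cells. The groups did not overlap, and their order was the reverse of that of Igf1 and Igfbp5. Igfbp7 ranked 24 by mean level in ADM+DHT cells, 16 in ADM cells, 76 in DHT cells and 164 in control cells. It rose by 2.11 ± 0.04 in ADM against control cells (log2, SE; limma adjusted p = 2.53e-08) and by 0.83 ± 0.04 in DHT against control cells (limma adjusted p = 1.35e-05). In adipogenic medium with DHT it rose by 1.06 ± 0.04 over DHT alone (limma adjusted p = 1.01e-06), while in ADM+DHT against ADM cells it fell by 0.22 ± 0.04 (limma adjusted p = 0.00389). Polr2b, an RNA polymerase subunit gene that overlaps Igfbp7 on the other strand, stayed between 25.6 and 29.8 FPKM in the 12 libraries.

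Igfbp4 encodes a binding protein that holds back ligand action and is the main substrate of the protease PAPP-A. It stood at 227, 224 and 220.1 FPKM in ADM+DHT cells, 189.7, 212 and 209.5 in ADM cells, 139, 138 and 147 in DHT cells, and 287, 279 and 295 in control cells. The groups did not overlap, and DHT cells were lowest. Igfbp4 fell by 1.02 ± 0.04 in DHT against control cells (log2, SE; limma adjusted p = 7.56e-06) and by 0.49 ± 0.05 in ADM against control cells (limma adjusted p = 0.00011). It rose by 0.66 ± 0.03 in ADM+DHT against DHT cells (limma adjusted p = 7.15e-06). In ADM+DHT against ADM cells the difference was 0.14 ± 0.05 and missed the threshold (limma adjusted p = 0.064). That value crossed the threshold with FPKM rescaled without mitochondrial genes (limma adjusted p = 0.0273) and with all 12 libraries in the fit (limma adjusted p = 0.0346).

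Igfbp6, whose product prefers IGF-II, and Igfbp2, whose product carries an integrin-binding motif, were at low levels. Igfbp6 stood at 4.57, 3.67 and 4.32 FPKM in ADM+DHT cells, 3.10, 4.23 and 3.08 in ADM cells, 5.49, 4.72 and 4.52 in DHT cells, and 5.98, 6.47 and 7.72 in control cells. Control cells were highest without overlap, and the other groups overlapped one another in the order of means. Igfbp6 fell by 0.79 ± 0.13 in ADM against control cells (log2, SE; limma adjusted p = 0.00112) and by 0.38 ± 0.10 in DHT against control cells (limma adjusted p = 0.032). The second call was lost without DHT replicate 2 or 3 (limma adjusted p = 0.091 and 0.095) and without control replicate 2 or 3 (limma adjusted p = 0.0596 and 0.0788). In ADM+DHT cells its differences from ADM cells (0.22 ± 0.12) and from DHT cells (-0.19 ± 0.10) missed the threshold (limma adjusted p = 0.209 and 0.143, in that order). The first was called without ADM replicate 2 (limma adjusted p = 0.0495). For DHT against control cells the authors' deposited table gives a q-value of 0.119.

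Igfbp2 stood at 0.915, 1.67 and 2.28 FPKM in ADM+DHT cells, 0.561, 1.10 and 0.553 in ADM cells, 1.47, 1.56 and 1.504 in DHT cells, and 0.339, 0.450 and 0.526 in control cells. Every library of the ADM+DHT, DHT and ADM cells lay above all 3 control libraries, with the lowest ADM library (0.553) close to the highest control library (0.526). Its mean was 1.51 ± 0.0481 FPKM in DHT cells and 0.438 ± 0.0942 FPKM in control cells (SD, n = 3 each), a log2 difference of 0.81. It passed the filter of 1 FPKM in that pair only through the DHT cells, in which it was high, so the difference is a description and no test is read from it. In ADM against control cells neither group averaged 1 FPKM, and it was not tested. In ADM+DHT against ADM cells, with means of 1.62 and 0.738 FPKM, the difference was 0.57 ± 0.21 (limma adjusted p = 0.0802). There Igfbp2 passed the filter only through the ADM+DHT cells, in which it was high, so no test is read from this pair either. Its call depended on the fit, without ADM+DHT replicate 1 (limma adjusted p = 0.0195) or with all 12 libraries in the fit (limma adjusted p = 0.0226).

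FPKM are per length, so the binding proteins can be set side by side, and their make-up differed between the groups. The 5 binding proteins summed to 1076 ± 18.1 FPKM in ADM+DHT cells, 1077 ± 43.3 in ADM cells, 849 ± 6.23 in DHT cells and 1002 ± 17.4 in control cells (SD, n = 3 each). Igfbp7 made up 62.3 ± 0.646% of that sum in ADM+DHT cells, 72.3 ± 0.421% in ADM cells, 37.9 ± 1.12% in DHT cells and 18.0 ± 0.554% in control cells. Igfbp5 made up 16.4 ± 0.415%, 8.37 ± 0.18%, 44.8 ± 1.37% and 52.7 ± 0.154% in the same order of groups. Igfbp7 thus took the place of Igfbp5 as the most abundant binding protein transcript in both adipogenic groups. Igfbp4 made up 20.8 ± 0.451%, 18.9 ± 0.549%, 16.6 ± 0.541% and 28.6 ± 0.416%, and Igfbp2 and Igfbp6 each stayed below 1% in every library. The level of Igfbp7 over that of Igfbp5 was 3.81 ± 0.127 in ADM+DHT cells, 8.65 ± 0.16 in ADM cells, 0.847 ± 0.0494 in DHT cells and 0.342 ± 0.0114 in control cells. The summed binding proteins over Igf1 came to 19.1 ± 0.655, 24.4 ± 1.49, 9.41 ± 0.285 and 6.02 ± 0.363. Igfbp7, whose product binds the ligands weakly, held most of that sum in both adipogenic groups, so the last ratio is no measure of ligand held. These ratios restate the levels of the same genes and were not tested.

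**Figure D3:**
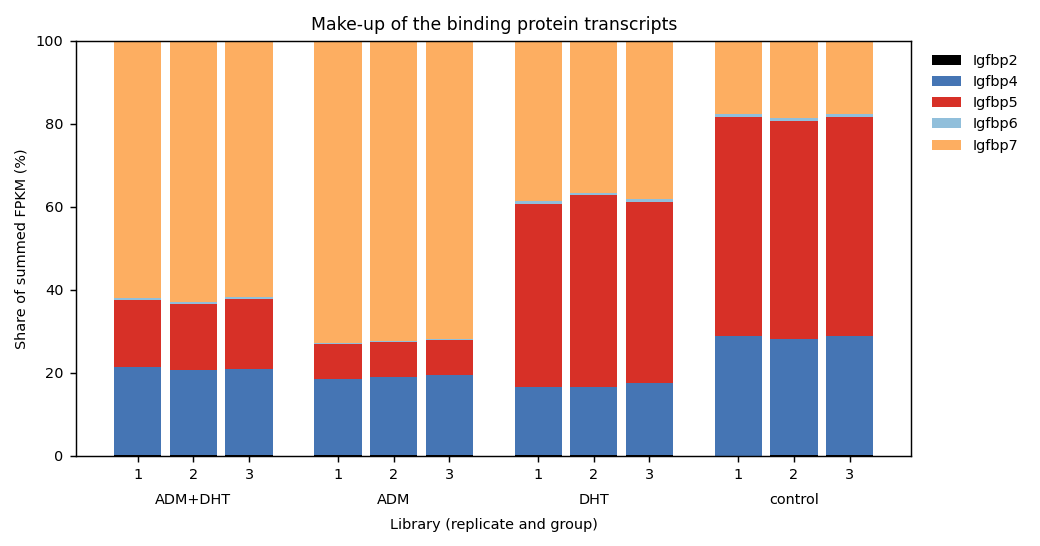
Share of each binding protein in the summed FPKM of the 5 binding proteins with rows, 1 stacked bar per library (percent). Igfbp7 fills 71.9 to 72.7% of each ADM library and 17.7 to 18.6% of each control library, and Igfbp5 fills 8.21 to 8.56% and 52.5 to 52.8% of the same libraries.

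Whether the androgen acted alike in both media was tested as an interaction over all 12 libraries, as the DHT difference in adipogenic medium minus that in regular medium. Of 9 members, 5 were higher and 1 was lower in this contrast, where 12.5% and 12.9% of 11152 genes were. For Igfbp5 the interaction was 1.43 ± 0.04 (log2, SE; limma adjusted p = 1.47e-09), since DHT raised it in adipogenic medium and lowered it in regular medium. For Igf1 it was 1.22 ± 0.06 (limma adjusted p = 6e-08), with the same pair of opposite changes. For Igfbp7 it was -1.05 ± 0.05 (limma adjusted p = 1.3e-07), with a fall in adipogenic and a rise in regular medium. For Igfbp4 it was 1.15 ± 0.06 (limma adjusted p = 2.06e-07), and only the fall in regular medium passed its own test. For Igf1r it was 0.40 ± 0.09 (limma adjusted p = 0.00648). For Igfbp6 it was 0.60 ± 0.17 (limma adjusted p = 0.0213), and this call was lost without ADM+DHT replicate 1, ADM replicate 1 or 3, DHT replicate 3 or control replicate 3 (limma adjusted p = 0.0505 to 0.0522).

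Igf2r was the member with a rise in both media, and its interaction was -0.09 ± 0.06 (log2, SE), with a limma adjusted p of 0.342. This does not show that the rise was equal in size. The interactions of Igfbp2 (-0.23 ± 0.24) and Igf2 (-0.27 ± 0.93) also missed the threshold, with limma adjusted p of 0.535 and 0.87. For Igf1, Igfbp4, Igfbp5, Igfbp7, Igf1r and Igfbp6, the mean level in ADM+DHT cells lay between those in ADM and control cells. For Igf1r and Igfbp6 the ADM+DHT and ADM libraries overlapped. The summed fat cell markers were lower in ADM+DHT than in ADM cells and near the control level in DHT cells, as given above. In regular medium the largest part of that sum, by mean, was Cebpa, at 14.3 FPKM in DHT and 18.1 in control cells. Its control libraries ran from 8.62 to 23.0 FPKM. Of the 5 fat cell markers tested in DHT against control cells 0 rose and 2 fell, where 12.7% and 14.1% of all genes did. Those were Lpl (-1.20 ± 0.08) and Pparg (-0.47 ± 0.08, log2, SE), and Lpl entered that test only through the control cells. The osteoblast marker Spp1 had opposite DHT differences too, 0.26 ± 0.03 in ADM+DHT against ADM cells and -1.36 ± 0.05 in DHT against control cells, with an interaction of 1.62 ± 0.06 (log2, SE; limma adjusted p = 7.98e-09). Of the 4 osteoblast markers tested in DHT against control cells 1 rose and 2 fell, where 12.7% and 14.1% of all genes did. The riser was Alpl (0.88 ± 0.09, log2, SE), which entered that test only through the DHT cells. In the interaction 2 of 3 osteoblast markers tested were higher and 0 lower, and of 8 stroma markers 5 were higher and 1 lower. Of 10 fat cell markers 0 were higher and 9 lower. Over all genes 12.5% were higher and 12.9% lower. Adipoq and some other fat cell markers averaged at least 1 FPKM only in the adipogenic groups, and entered this test only through them. The part of these marker genes in the members' interactions was not tested. With FPKM rescaled without mitochondrial genes the interactions were 1.42 for Igfbp5, 1.21 for Igf1, 1.14 for Igfbp4 and -1.06 for Igfbp7.

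**Figure D4:**
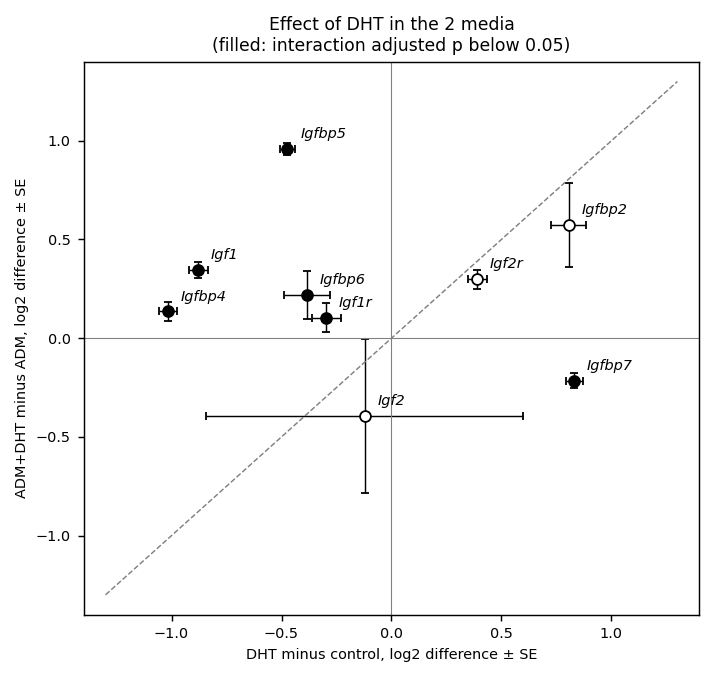
Log2 difference of each gene under DHT in adipogenic medium (vertical, ADM+DHT minus ADM) against that in regular medium (horizontal, DHT minus control), with SE; the dashed line marks equal effects and filled symbols have an interaction adjusted p below 0.05. Igfbp5 and Igf1 lie upper left (0.96 and 0.35 against -0.47 and -0.88), Igfbp7 lower right (-0.22 against 0.83), and Igf2r near the line (0.30 against 0.39).

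Proteases that cut the binding proteins, and their inhibitors, changed in both directions. Of 11 genes on that list 7 were tested. In ADM against control cells 4 rose and 3 fell, where 28.3% and 33.3% of all genes tested did, and the list median was 0.32 (log2). Pappa2, which encodes pappalysin 2, a protease of binding proteins 3 and 5, averaged 2.49 ± 0.117 FPKM in ADM+DHT cells, 1.74 ± 0.21 in ADM cells, 18.6 ± 1.54 in DHT cells and 20.99 ± 1.78 in control cells (SD, n = 3 each). It fell by 3.00 ± 0.09 in ADM against control cells (log2, SE; limma adjusted p = 1.79e-07). Adam12, a metalloprotease that cuts binding proteins 3 and 5, averaged 15.7, 22.2, 7.03 and 3.61 FPKM in ADM+DHT, ADM, DHT and control cells, in that order. It rose by 2.33 ± 0.07 in ADM and by 0.80 ± 0.09 in DHT against control cells (limma adjusted p = 1.74e-07 and 0.000666, in that order).

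Pappa encodes PAPP-A, and Stc2 encodes stanniocalcin 2, a secreted inhibitor of PAPP-A. Pappa averaged 14.8 ± 0.464 FPKM in ADM+DHT cells, 6.50 ± 0.401 in ADM cells, 8.72 ± 0.585 in DHT cells and 7.53 ± 0.37 in control cells. It rose by 1.08 ± 0.06 in ADM+DHT against ADM cells (log2, SE; limma adjusted p = 1.67e-05), and in DHT against control cells the difference was 0.19 ± 0.07 (limma adjusted p = 0.0804). The interaction for Pappa was 0.89 ± 0.09 (limma adjusted p = 1.72e-05). Stc2 averaged 14.8 ± 2.61, 6.12 ± 0.186, 4.71 ± 0.346 and 1.49 ± 0.12 FPKM in ADM+DHT, ADM, DHT and control cells, in that order. It rose in all 4 pairs, by 1.14 ± 0.12 in ADM+DHT against ADM cells, 1.46 ± 0.12 in ADM+DHT against DHT cells, 1.51 ± 0.07 in ADM against control cells and 1.19 ± 0.08 in DHT against control cells. The protease and its inhibitor were thus both highest in ADM+DHT cells.

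Htra3, a secreted serine protease, averaged 27.4 ± 0.171, 24.5 ± 1.36, 4.06 ± 0.475 and 5.90 ± 0.25 FPKM in the same order of groups. It rose by 1.89 ± 0.06 in ADM and fell by 0.45 ± 0.08 in DHT against control cells (log2, SE; limma adjusted p = 2.85e-07 and 0.00763, in that order). Its relative Htra1 rose by 0.32 ± 0.09 and the metalloprotease gene Adam9 fell by 0.30 ± 0.07 in ADM against control cells (limma adjusted p = 0.0206 and 0.00879). Over the whole list, 2 rose and 2 fell in DHT against control cells, beside 12.7% and 14.1% over all genes. In ADM+DHT against ADM cells 4 rose and 1 fell, beside 17.2% and 16.3%, and in ADM+DHT against DHT cells 6 rose and 1 fell, beside 23.3% and 26.7%. In the interaction 4 were higher and 1, Adam12, was lower, beside 12.5% and 12.9%.

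**Figure D5:**
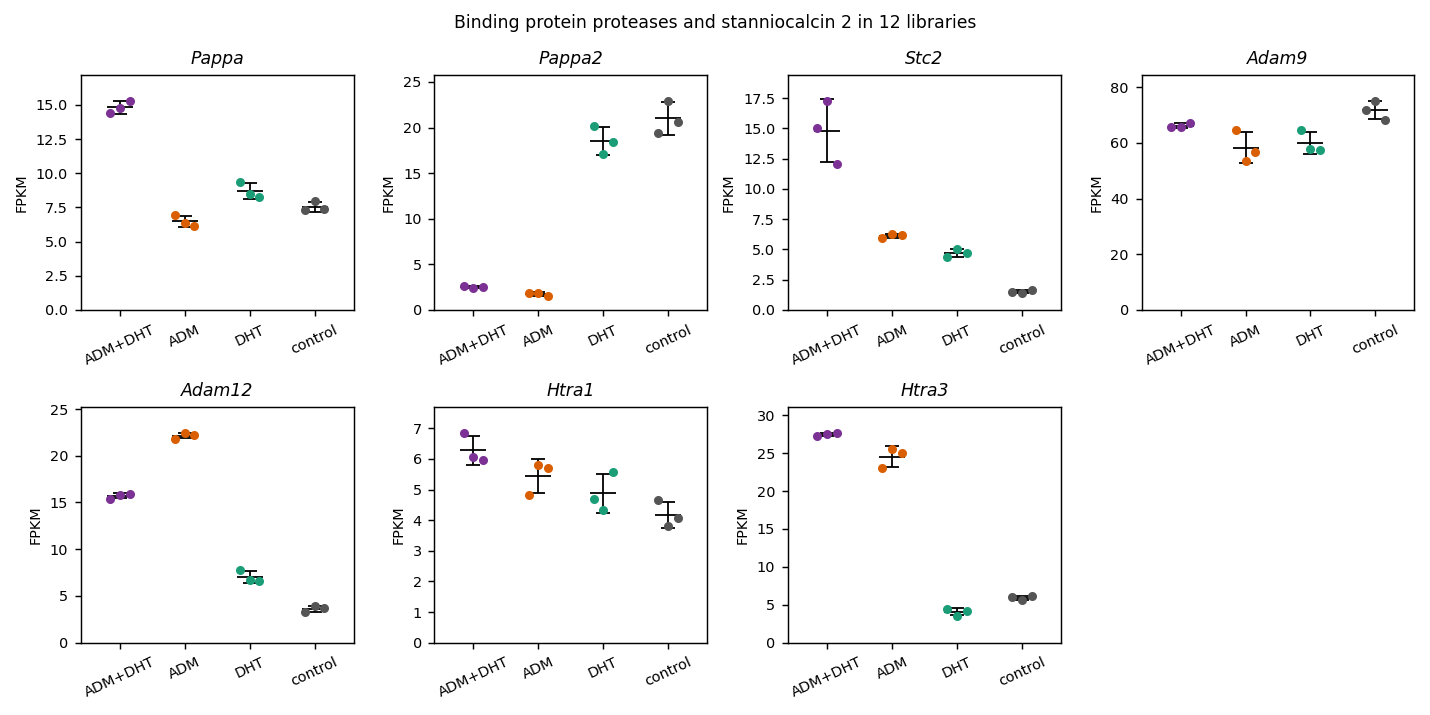
FPKM of the 6 proteases and the inhibitor Stc2 in each library, by group (ADM+DHT, ADM, DHT, control); points are libraries, the wide bar is the mean and the whiskers are 1 SD (n = 3). Pappa and Stc2 are highest in ADM+DHT cells (means of 14.8 FPKM each), and Pappa2 is below 3 FPKM in every adipogenic library.

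The growth hormone axis, a known driver of Igf1 in liver, was measured as 8 genes. In ADM against control cells 7 rose and 1 fell, where 28.3% and 33.3% of all genes tested did, and the list median was 0.75 (log2). The 7 include Cish, at 2.93 FPKM in ADM cells and 0.731 FPKM in control cells, which entered the test only through the ADM cells. Ghr, the growth hormone receptor, averaged 36.5 ± 0.393 FPKM in ADM+DHT cells, 79.0 ± 0.541 in ADM cells, 14.1 ± 0.669 in DHT cells and 17.4 ± 0.373 in control cells. It rose by 2.12 ± 0.04 in ADM against control cells (log2, SE; limma adjusted p = 1.87e-08) and fell by 1.09 ± 0.03 in ADM+DHT against ADM cells (limma adjusted p = 1.59e-06). Stat5a, which carries the receptor's signal to the nucleus, rose by 0.97 ± 0.08 in ADM against control cells. Socs1, a feedback inhibitor, was the one that fell (-0.47 ± 0.07). In DHT against control cells 3 of 7 tested rose and 2 fell, where 12.7% and 14.1% of all genes did. Of all 8, 2 rose and 3 fell in ADM+DHT against ADM cells, where 17.2% and 16.3% of all genes did. Set against DHT cells, 6 of 8 rose and 1 fell in ADM+DHT cells, where 23.3% and 26.7% of all genes did. In the interaction 0 of 8 were higher and 4 were lower, where 12.5% and 12.9% of all genes were.

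Genes that carry the signal of the type 1 and insulin receptors inward were measured as 30 genes, of which 28 were tested. In ADM against control cells 11 rose and 5 fell, a share of the tested genes to be read beside the 28.3% and 33.3% over all genes, and the list median was 0.07 (log2). Pik3r1, a regulatory subunit of phosphoinositide 3-kinase, averaged 64.5 ± 0.54 FPKM in ADM+DHT cells, 74.5 ± 2.94 in ADM cells, 14.5 ± 0.39 in DHT cells and 15.4 ± 0.843 in control cells. It rose by 2.21 ± 0.05 in ADM against control cells (log2, SE; limma adjusted p = 8.02e-08). The adaptor Gab1 rose by 1.62 ± 0.05 and the transcription factor gene Foxo3 by 1.58 ± 0.05 in the same pair. Irs2, a docking protein of both receptors, averaged 4.31 ± 0.263, 9.84 ± 0.33, 2.22 ± 0.135 and 2.15 ± 0.23 FPKM in ADM+DHT, ADM, DHT and control cells. It fell by 1.03 ± 0.06 in ADM+DHT against ADM cells (limma adjusted p = 2.66e-05). Over the list, 4 rose and 3 fell in DHT against control cells, beside 12.7% and 14.1% over all genes. There were 5 that rose and 7 that fell in ADM+DHT against ADM cells, beside 17.2% and 16.3%. In ADM+DHT against DHT cells 11 rose and 4 fell, beside 23.3% and 26.7%. Pik3cb is counted as fallen in both pairs, with means of 0.656 FPKM in ADM+DHT, 1.05 in ADM and 1.67 in DHT cells. It entered the first test only through the ADM cells and the second only through the DHT cells, so its differences are a description. In the interaction 1 was higher and 5 were lower, beside 12.5% and 12.9%.

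Of 4 genes of the mannose 6-phosphate pathway, whose tagged enzymes are cargo of the type 2 receptor, 1 rose and 1 fell in ADM against control cells, beside 28.3% and 33.3% over all genes. Gnptab, which encodes subunits of the tagging enzyme, averaged 14.9 ± 2.49 FPKM in ADM+DHT cells, 27.5 ± 2.78 in ADM cells, 12.7 ± 0.374 in DHT cells and 13.7 ± 1.18 in control cells. It rose by 0.95 ± 0.09 in ADM against control cells and fell by 0.85 ± 0.13 in ADM+DHT against ADM cells (log2, SE; limma adjusted p = 6.24e-05 and 0.00202, in that order). Of 11 other genes related to the axis by family, domain or name, 4 were tested in ADM against control cells. Of these 1 rose and 1 fell, beside the same 28.3% and 33.3% over all genes. Insr, the insulin receptor gene, rose there by 0.81 ± 0.23 (limma adjusted p = 0.016), with 4.65, 5.92 and 4.38 FPKM in ADM cells and 1.60, 3.86 and 2.07 FPKM in control cells. Esm1, whose product carries a binding protein-like domain, averaged 0.825 FPKM in ADM cells, 0.25 FPKM in DHT cells and 2.98 FPKM in control cells, and was listed at 0 in all 3 ADM+DHT libraries. It is the gene counted as fallen, and it passed the filter only through the control cells, in which it was high, so its levels are a description. Of 7 imprinted growth genes, a list that also holds Igf2r, 4 were tested in ADM against control cells. Igf2r was the 1 that changed, where 61.6% of all genes tested did. Grb10, an imprinted adaptor that restrains both receptors, averaged 19.3, 19.3, 17.9 and 19.3 FPKM in ADM+DHT, ADM, DHT and control cells, and its difference in ADM against control cells was 0.00 ± 0.04.

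Genes whose levels ran most like those of Igfbp5, Igfbp7 and Igf1 were sought among 7510 genes, as the smallest root mean square difference of log2 change from control over the 12 libraries. For Igfbp5 they were Pla2g4a (0.15), Fn1 (0.22) and Itga11 (0.26), which encode a phospholipase A2, fibronectin and an integrin subunit. Fn1 averaged 297 ± 9.09 FPKM in ADM+DHT cells, 137 ± 0.779 in ADM cells, 851 ± 33.3 in DHT cells and 913 ± 15.1 in control cells. For Igfbp7 they were Adam12 (0.13), which is also on the protease list, Cp (0.13) and Actr3b (0.13). Cp, which encodes ceruloplasmin, averaged 12.7 ± 0.14 FPKM in ADM+DHT cells, 18.0 ± 0.603 in ADM cells, 6.74 ± 0.519 in DHT cells and 3.01 ± 0.0997 in control cells. For Igf1 they were Emilin2 (0.11), Tnfrsf11b (0.17) and Klhdc8a (0.18). Tnfrsf11b, which encodes the osteoclast inhibitor osteoprotegerin, averaged 3.56 ± 0.0776 FPKM in ADM+DHT cells, 3.11 ± 0.546 in ADM cells, 7.92 ± 0.565 in DHT cells and 14.97 ± 1.22 in control cells. This likeness describes these 12 libraries and carries no test.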

How the data were processed

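Poly(A)-selected RNA was sequenced from strand-specific libraries, per the labels' protocols. Named in the submitters' processing notes, without versions, are StringTie, HISAT2, cutadapt and FastQC, and the genome build GRCm38. For each of 4 pairs of groups the authors deposited a table of FPKM per library. Per the file headers they also hold group values and a log2 fold change. On the values, the deposited log2 group value is the mean of log2(FPKM + 1), the log2 fold change is the difference, and the fold is the ratio from it. The test behind the authors' deposited p-value and q-value columns is not given in the sources used here. Each table lists genes averaging at least 0.5 FPKM in a group. Values of a library were equal in all tables, so these were joined by gene identifier. With no counts, no counting error is given, and precision rests on 3 replicates per group.

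Log2(FPKM + 1) was tested with limma 3.58.1 (R 4.3.3, data.table, version 1.17.8; moderated, intensity trend, two-sided) for genes averaging at least 1 FPKM in a compared group. Pairs were fitted on 6 libraries and the interaction on 12, with Benjamini-Hochberg adjustment over every gene tested in a comparison. The procedure was tested on simulated data. Alternatives were another pseudocount, filter, centring, rescaling, trend, sample set, replicate block and leaving out each library. Named were all members, the 3 nearest genes of each of the 3 members that moved most, every tested gene of the protease list, and up to 4 genes per other list by adjusted p. A gene picked by this rule is not reported here. The members and lists were chosen with earlier results of these data known, and the FOXO and TATA motifs were added after the values were seen. Promoters are from RefSeq, GRCm38.p6. Figures used Python 3.11.15, pandas 2.3.3, numpy 2.4.6 and matplotlib 3.10.9.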

Additional observations from a re-analysis of the deposited data

Results flagged for a closer look

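The effect of DHT differed between adipogenic and regular medium for 6 of the 9 members by the test of the interaction, where 25.4% of 11152 genes differed. The log2 interaction was 1.43 ± 0.04 for Igfbp5, 1.22 ± 0.06 for Igf1, 1.15 ± 0.06 for Igfbp4, 0.60 ± 0.17 for Igfbp6, 0.40 ± 0.09 for Igf1r and -1.05 ± 0.05 for Igfbp7 (SE, limma on 12 libraries). Igf1, Igfbp5 and Igfbp7 changed in both media and in opposite directions. Igf1r, Igfbp4 and Igfbp6 fell in regular medium and did not pass the test in adipogenic medium. The Igfbp6 call was lost in 5 of the fits that leave out 1 library (limma adjusted p = 0.0505 to 0.0522). The fat cell, stroma and osteoblast markers also differed between these groups, and their part in the interactions was not tested. With FPKM rescaled without mitochondrial genes, 6 members again differed, where 2795 of 11152 genes did.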

How the results depend on the processing

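Of 653 values recomputed for the members under the alternatives, 627 kept their direction and side of the threshold, 10 lost the call, 6 gained it and 10 turned sign, and all of the last 10 belong to uncalled differences of Igf2 or Igfbp2. With all 12 libraries in the fit, 5 members rose in ADM+DHT against ADM cells, in place of 3, where 2018 of 10771 genes rose. The added ones were Igfbp4 and Igfbp2, and Igfbp2 entered that pair only through the ADM+DHT cells. Leaving out 1 library at a time gave 1 to 2 members that rose in ADM against control cells and 3 to 4 that rose in ADM+DHT against ADM cells. Over all genes 2878 to 3014 and 1453 to 1592 rose in these fits, in that order. The log2 difference of Igf2 then ranged from -0.10 to 0.60 in ADM against control cells, from -1.01 to 0.64 in DHT against control cells, from -0.82 to 0.84 in ADM+DHT against DHT cells and from -1.04 to 0.62 in the interaction. That of Igfbp2 in ADM+DHT against DHT cells ranged from -0.15 to 0.24. With a pseudocount of 0.1, Igf2 in ADM+DHT against DHT cells was at 0.0027. Same-numbered replicates of different groups showed correlations of -0.139 to 0.145 over 12 pairs, so the numbers were not taken to pair the samples. With a replicate block 7 members changed in ADM and 7 in DHT against control cells, where 6712 of 11074 and 2542 of 10820 genes did. There were 4 in ADM+DHT against ADM cells and 6 in ADM+DHT against DHT cells, where 3033 of 10823 and 4942 of 10942 genes changed. Igfbp2 is among the 7 in DHT against control cells, and it entered that test only through the DHT cells. In the interaction 6 members changed with this block, where 2750 of 11152 genes did. Igfbp6 in DHT against control cells (-0.38) then had a limma adjusted p of 0.0784, and no other member's call changed under the replicate block. The cause of these changes was not tested. Levels near 1 FPKM, as for Igfbp2, limit what can be seen, and without counts the depth behind them is unknown.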
